A study of Mus musculus with 54 samples.

Results

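Spermatocytes of the combined mutant, CM, were compared with spermatocytes of the BORIS knockout, BORIS KO, by RNA-seq of 3 libraries of each, which makes 6 of the 54 samples of the series. CM mice have the genotype Ctcf+/- Boris-/- and their libraries carry the name DKO in the titles, while BORIS KO mice are Ctcf+/+ Boris-/-. Both groups therefore lacked BORIS, and the comparison asked what the loss of 1 *Ctcf* allele adds in germ cells without it. All mice were on the C57BL/6 strain and 3 months old, and each preparation pooled the germ cells of 4 mice. Spermatocytes were enriched by elutriation, sorted on Vybrant DyeCycle Green, and reached a purity of 81.5 ± 3.7% by staining for SYCP3, so that other cells of the testis remained in the preparations. The rest of the series holds round spermatids, whole testis and the WT and CTCF HET (Ctcf+/-) genotypes, together with ChIP-seq of germ cell-enriched testis.

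CTCF is a zinc finger protein that binds promoters and insulators and, with cohesin, holds the bases of chromatin loops. BORIS, the product of *Ctcfl*, is its paralog in male germ cells and has nearly the same DNA-binding domain. In pachytene spermatocytes the homologous chromosomes are joined by the synaptonemal complex and recombine, the X and Y chromosomes are silenced in the sex body, and many transcripts for later stages are already made. Round spermatids follow the meiotic divisions and build the acrosome, the flagellum and, at last, protamine-packed chromatin.

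Total counts were 65758281, 88946702 and 65533660 in the BORIS KO libraries and 82900379, 76532040 and 70716315 in the CM libraries. Counts were found for 17672 to 17970 genes in BORIS KO, but only for 16666, 14145 and 15168 in CM replicates 1, 2 and 3. Log-scale correlations between libraries ran from 0.992 to 0.997 within BORIS KO, from 0.944 to 0.955 within CM and from 0.908 to 0.968 between the groups. CM replicate 1 was closer to BORIS KO (0.964 to 0.968) than to CM replicates 2 and 3 (0.950 and 0.955). CM replicates 2 and 3 were closer to the CM libraries than to BORIS KO. Levels are given as CPM, counts scaled to a common library size with TMM factors, and p-values measure the spread between these pooled preparations.

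*Ctcf* (chr8:108160468-108206822, plus strand, mm9) did not show a lower level in CM. CM therefore stands for the libraries with that label. Its level was 30.7, 32.3 and 30.9 CPM in BORIS KO and 87.2, 35.3 and 35.0 CPM in CM replicates 1 to 3. All 3 CM libraries lay above BORIS KO, replicate 1 far above, and the log2 fold change of 0.75 ± 0.35 (SE) did not pass the test (edgeR quasi-likelihood, adjusted p = 0.111). In CTCF HET spermatocytes *Ctcf* was not lower than in WT either (log2 fold change 0.34). The counts are per gene, so RNA of the wild-type allele and RNA of the targeted allele cannot be told apart. *Ctcfl* was listed at 0.00 to 0.09 CPM in BORIS KO and at 0.00 to 0.40 CPM in CM, and was too low to be tested.

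The gene that separated the libraries by *Ctcf* allele was *Rltpr* (chr8:108210174-108222078, plus strand), which begins 3351 bp after the end of *Ctcf* and encodes a CARMIL-family regulator of actin capping. It stood at 2.32, 2.83 and 2.98 CPM in BORIS KO and at 73.7, 55.5 and 48.0 CPM in CM. The log2 fold change was 4.44 ± 0.21 (adjusted p = 0.000249, edgeR quasi-likelihood test). WT spermatocytes held 1.61 and 1.60 CPM and CTCF HET spermatocytes 65.1, 37.5 and 55.7 CPM, so every spermatocyte library with 1 targeted *Ctcf* allele was high and every other library low. Of 52 tested genes within 1 Mb of *Ctcf*, *Rltpr* included, 13 were lower in CM (25.0%, against 12.3% of all genes) and 2 were higher (3.85%, against 11.9%), which were *Rltpr* and *Cdh1*. Their median GC content was 55.8%. With the GC offset introduced next, 2 were lower (3.85%, against 2.71%) and 3 higher (5.77%, against 7.03%), near the shares of all genes. *Plekhg4*, like *Cdh1* chosen after its values were seen, fell in both fits, from 34.7, 32.0 and 28 CPM to 8.60, 3.88 and 3.54 CPM. *Cdh1* was not called with all 4 genotypes in one edgeR fit (adjusted p = 0.119).

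**Figure D1:**
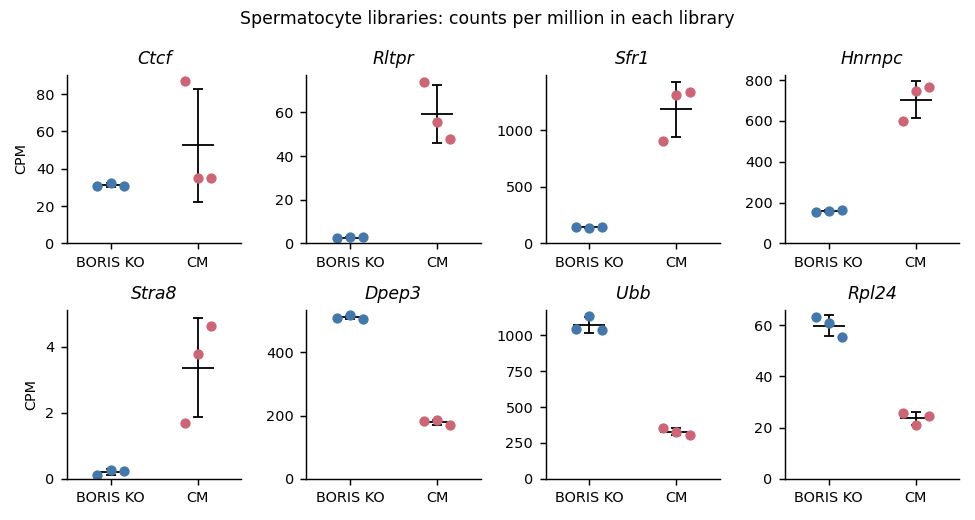
Level in CPM (scaled counts, linear axes from 0) of 8 genes in the 3 BORIS KO and 3 CM spermatocyte libraries; points are libraries, horizontal marks the mean and bars the SD. *Rltpr*, *Sfr1*, *Hnrnpc* and *Stra8* were higher in all 3 CM libraries, *Dpep3*, *Ubb* and *Rpl24* were lower in all 3, and *Ctcf* was high in CM replicate 1 (87.2 CPM) but at 35.3 and 35.0 CPM in the others.

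Many genes differed between CM and BORIS KO. Of 14292 tested genes, 1698 were higher in CM (11.9%) and 1758 lower (12.3%) at an adjusted p below 0.05 and a fold change over 2 (edgeR quasi-likelihood test, Benjamini-Hochberg). The libraries of the 2 groups did not overlap for 1647 and 1757 of these, and over all tested genes CM lay wholly above BORIS KO for 32% and wholly below for 34%. DESeq2 called 1626 of the higher and all 1758 of the lower genes as well. Without CM replicate 1, 2056 genes were higher and 2840 lower.

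The direction of change followed the base composition of the gene. The mean GC content of the counted genes, weighted by counts, was 49.0 to 49.1% in BORIS KO libraries and 46.5 to 47.2% in those of CM, against 47.6 and 47.9% in WT and 46.8% in each CTCF HET library. Across 13818 genes the log2 fold change had a Spearman correlation of -0.67 with GC content, given as a description since all genes share the same libraries. Genes were split into 5 bins of equal size by GC content. In the bin with the least GC the median log2 fold change was 0.84, with 915 genes higher and 2 lower, and in the bin with the most GC it was -1.02, with 32 higher and 1077 lower. Base composition and genotype cannot be told apart here, because every CM library differed from every BORIS KO library in this way. An edgeR fit with an offset that removes each library's trend on GC content was therefore set beside every result; this second fit was chosen after the data had been seen, and it would also remove a change that truly goes with GC content.

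With the GC offset, 972 of 13818 genes were higher in CM (7.03%) and 374 lower (2.71%), together 9.74%, and the 5 bins had medians from -0.02 to 0.03. Both fits called 665 genes higher and 270 lower, of which 160 and 132 had a mean of at least 10 CPM. No gene was called in opposite directions. The counts with the offset fell to 485 and 255 without BORIS KO replicate 2 and rose to 1581 and 1039 without CM replicate 1. Another 955 higher and 1457 lower genes passed only without the offset, and 307 and 104 only with it. Calls that held in both fits are named as such.

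**Figure D2:**
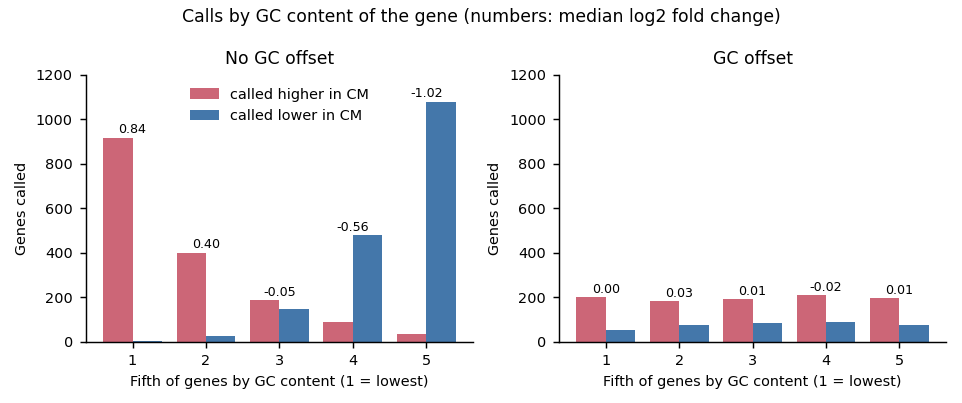
Number of genes called higher (red) or lower (blue) in CM in each of 5 bins of the tested genes by GC content, without (left) and with (right) the GC offset; the number over each pair of bars is the median log2 fold change of that bin. Without the offset the median falls from 0.84 in the first bin to -1.02 in the last, and with it all medians lie between -0.02 and 0.03.

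Among the 10 higher genes with the smallest p, *Hnrnpc*, *Sfr1*, *Zfp326* and *Rltpr* passed in both fits. *Sfr1*, which encodes an accessory factor of recombination repair, rose from 142, 139 and 149 CPM to 909, 1318 and 1338 CPM. The groups lay far apart, with a log2 fold change of 3.05 ± 0.16 (edgeR adjusted p = 0.000249) and 2.42 with the GC offset. *Hnrnpc*, an abundant binder of nascent RNA, rose from 153, 158 and 162 CPM to 600, 748 and 765 CPM (log2 fold change 2.16, 1.48 with the offset). *Zfp326*, a zinc finger gene, stood at 57.5 to 58.3 CPM in BORIS KO and at 221 to 296 CPM in CM (2.17, 1.09 with the offset).

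Another 5 of these genes were past the fold threshold only without the offset. They were *Fam98b*, *Stx12*, *Fubp1*, *Iws1* and *Rab8b*, with log2 fold changes of 1.32 to 1.63 that became 0.51 to 0.86 with it. *Fubp1* encodes a single-strand DNA-binding regulator and *Iws1* a transcription elongation factor. *Fam98b* was at 67.9, 71.7 and 70.5 CPM in BORIS KO and 199, 189 and 212 CPM in CM.

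On the lower side, *Pex11c*, a peroxisome membrane gene, was the only one of the 10 genes with the smallest p to pass in both fits. It fell from 60.6, 65.0 and 60.2 CPM to 21.8, 21.4 and 17.8 CPM (log2 fold change -1.61 ± 0.11, edgeR adjusted p = 0.000296; -1.24 with the offset). *Dpep3*, a membrane dipeptidase of the testis, stood at 508, 517 and 505 CPM in BORIS KO and 181, 185 and 169 CPM in CM, and *Ubb*, a polyubiquitin gene, at 1046, 1136 and 1033 CPM and 357, 325 and 305 CPM. Both were clearly apart between the groups, yet their log2 fold changes of -1.51 and -1.70 became -0.72 and -0.91 with the offset, under the fold threshold. *Gm128*, *Thop1*, *Gltscr2*, *Pnpla2*, *Rps15*, *Pgam2* and *Rab1b* had -1.22 to -1.55, and -0.56 to 0.12 with the offset, where *Rps15*, a ribosomal protein gene, changed sign.

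Further genes that passed in both fits were picked after their values were seen. *Hspb11*, an intraflagellar transport gene, rose from 34.7, 40.7 and 39.1 CPM to 173, 276 and 242 CPM, and *Traf3ip1*, another gene of that transport, from 167, 173 and 167 CPM to 405, 342 and 364 CPM. Without CM replicate 1 *Traf3ip1* was just under the fold threshold (0.97). *Flt1*, a receptor for vascular endothelial growth factors, fell from 6.98, 4.89 and 4.95 CPM to 0.57, 0.64 and 0.80 CPM. *Mgst3*, a microsomal glutathione transferase, fell from 5.31 to 5.67 CPM to 0.84 to 0.98 CPM, and *Nmnat3*, an enzyme of NAD synthesis, from 86.9, 135 and 131 CPM to 40.5, 28.2 and 29.5 CPM.

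Of the tested spermatogonial markers 10 of 18 rose, from low levels. Of 22 spermatogonial markers 18 were tested, and 10 were higher (55.6%, against 11.9% of all genes and 7.03% with the offset) and 0 lower in both fits. The median log2 fold change was 1.74, and 1.85 with the offset (all genes 0.02 and 0.00). Low markers could pass the count filter on these 6 libraries through CM alone. The count, share and median therefore describe the markers that passed and are no support by themselves. This limit holds for the low genes of every list below. *Stra8*, which retinoic acid induces at meiotic entry, stood at 0.11, 0.26 and 0.24 CPM in BORIS KO and at 1.69, 3.78 and 4.63 CPM in CM (log2 fold change 4.02 ± 0.52, edgeR adjusted p = 0.000894). *Kit*, the stem cell factor receptor of differentiating spermatogonia, stood at 0.26, 0.27 and 0.27 CPM and at 0.67, 0.84 and 1.37 CPM (1.85 ± 0.47, adjusted p = 0.0137; 1.71 with the offset).

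No CM library overlapped the BORIS KO libraries for these genes, nor for *Dmrt1*, a transcription factor that holds spermatogonia out of meiosis, with 0.44, 0.28 and 0.27 CPM against 2.49, 4.31 and 5.00 CPM, or for *Foxo1*, which acts in spermatogonial stem cells, with 2.53, 2.27 and 2.29 CPM against 7.16, 8.39 and 9.78 CPM. *Zbtb16*, *Ret*, *Sohlh2*, *Sall4*, *Lin28a* and *Crabp1* were the other members that rose. At these low levels several calls ended under another fit. With all 4 genotypes in one edgeR fit the adjusted p was 0.3004 for *Kit*, 0.277 for *Sohlh2*, 0.168 for *Sall4*, 0.370 for *Lin28a* and 0.0535 for *Zbtb16*, and without any 1 BORIS KO library it was 0.0550 to 0.0639 for *Kit* and 0.0645 to 0.0818 for *Lin28a*. *Sohlh2* lost its call without BORIS KO replicate 2 (0.0511) and *Crabp1* without BORIS KO replicate 1 (0.0510) or 3 (0.0557), and with the replicate block *Kit* was at 0.0511 and *Lin28a* at 0.0730. The sum over the list went the other way, from 1592 to 1789 CPM in BORIS KO to 937 to 1196 CPM in CM, since it rests on *Dmrtb1*, which was at 1435, 1594 and 1632 CPM and at 911, 761 and 713 CPM and was not called (-0.97, 0.17 with the offset). In bulk libraries, fewer cells of a type and less RNA per cell cannot be told apart.

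Markers of cells outside the germ line were low in both groups. The summed level of 18 Sertoli cell markers was 15.6 to 33.3 CPM in BORIS KO and 26.5 to 32.1 CPM in CM, that of 14 Leydig cell markers 57.7 to 63.0 and 39.1 to 40.2 CPM, and that of 16 peritubular and endothelial markers 16.5 to 17.4 and 14.7 to 20.7 CPM. Macrophage and lymphoid markers summed to 4.72 to 5.08 and 4.33 to 11.2 CPM, with 8 of 14 under 0.1 CPM in every library, and 5 of 7 erythroid markers were under that level. Of 14 tested Sertoli markers 3 were higher (21.4%) and 2 lower (14.3%), and 4 (28.6%, against 7.03% of all genes) and 1 with the offset. Of 6 tested Leydig markers 2 were higher (33.3%) and 1 lower (16.7%) in both fits. The shares of all genes were 11.9 and 12.3%, and 7.03 and 2.71% with the offset. *Cyp17a1*, a steroid enzyme of Leydig cells, was at 0.06 to 0.27 CPM in BORIS KO and 0.95 to 2.27 CPM in CM, and *Wt1*, a Sertoli cell factor, at 0.17 to 0.67 and 0.86 to 1.40 CPM. *Wt1* lost its call with all 4 genotypes in one edgeR fit (adjusted p = 0.332), without the low-count filter, and without BORIS KO replicate 2 or 3 or CM replicate 1 or 2. The part of such cells in the changes was not tested.

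Pachytene and diplotene genes, the identity of the sorted cells, stayed high. The 27 markers summed to 26712 to 29832 CPM in BORIS KO and 28011 to 34569 CPM in CM. Of them 1 was higher (3.70%, against 11.9% of all genes) and 4 lower (14.8%, against 12.3%). With the offset 0 were higher and 1 was lower (3.85%, against 2.71%). *Ldhc*, the lactate dehydrogenase of the germ line, was at 4446, 5007 and 4639 CPM in BORIS KO and 3303, 5063 and 4318 CPM in CM, and *Piwil1*, a Piwi protein of pachytene piRNAs, at 1831, 1699 and 1630 and at 1396, 1416 and 1362 CPM. Neither was called. *Ybx2*, a binder of stored messenger RNA, fell from 3888, 4262 and 4164 CPM to 1789, 1452 and 1478 CPM (-1.38), which became 0.07 with the offset, as its GC content of 62.5% is high.

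Genes of the meiotic chromosome axis were higher in CM without the offset and mostly not with it. Of 15 tested genes of the synaptonemal complex and axis 9 were higher (60.0%, against 11.9% of all genes) and 0 lower (median 1.38). With the offset 3 were higher (20.0%, against 7.03%) and 0 lower (median 0.43). *Sycp1*, the transverse filament of the complex, was at 323, 332 and 346 CPM and at 983, 1702 and 2287 CPM (log2 fold change 2.31, 0.80 with the offset), and *Sycp3*, an axis protein, at 276, 278 and 264 CPM and at 635, 679 and 813 CPM (1.38, 0.05 with the offset). These genes have some of the lowest GC contents of the table, 34.6 and 36.1%. The 3 that passed in both fits were *4930447C04Rik*, known as Six6os1 and a central element gene, at 21.1, 21.5 and 22.4 CPM and at 83.6, 104 and 127 CPM, *Tex15*, a germ cell gene needed for meiotic repair, at 3.21 to 5.75 CPM and at 13.6 to 53.9 CPM, and *Tex11* on the X chromosome.

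Cohesin and condensin genes followed the same course, with 11 of 21 higher (52.4%, against 11.9% of all genes) and 2 lower (9.52%, against 12.3%, median 1.03). With the offset 3 were higher (14.3%, against 7.03%) and 0 lower (median 0.16). *Smc1b*, the meiotic cohesin subunit, was at 343, 363 and 413 CPM and at 1001, 1156 and 1410 CPM (1.67, 0.67 with the offset). *Smc4*, a condensin core subunit, was at 1306, 1380 and 1496 CPM and at 2865, 4114 and 4469 CPM (1.45, 0.41 with the offset). *Rec8*, the meiotic kleisin, passed in both fits, at 1.64, 2.99 and 2.35 CPM and 3.81, 4.58 and 7.79 CPM, as did *Smc1a* and *Stag2*, both on the X chromosome. With all 4 genotypes in one edgeR fit *Rec8* (adjusted p = 0.0594) and *Smc1a* (0.0564) were not called. *Rec8* also lost its call without BORIS KO replicate 1 or 3 or CM replicate 3, and *Smc1a* without BORIS KO replicate 2 or 3.

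Among 27 recombination genes 6 were higher (22.2%) and 4 lower (14.8%), against 11.9 and 12.3% of all genes. With the offset 3 were higher (11.1%) and 1 lower (3.70%), against 7.03 and 2.71%, so these counts rest on few genes. Those that passed both were *Prdm9*, which marks hotspots, at 0.58, 0.43 and 0.70 CPM and 1.60, 1.74 and 1.70 CPM, *Brca1*, at 3.70, 3.38 and 3.84 CPM and 7.60, 11.2 and 12.3 CPM, *Mnd1*, a partner of DMC1, and, on the lower side, the endonuclease gene *Mus81*, at 27.4, 26.1 and 23.5 CPM and 11.05, 6.59 and 5.22 CPM. With all 4 genotypes in one edgeR fit *Prdm9* was not called (adjusted p = 0.320). *Spo11*, the enzyme of meiotic breaks, was at 113, 122 and 117 CPM and 201, 185 and 192 CPM and stayed under the fold threshold (0.72, 0.41 with the offset). Of 19 genes of the DNA damage response and the sex body 3 were higher (15.8%) and 1 lower (5.26%). With the offset only *Scml2*, a Polycomb-group gene on the X chromosome, was called (5.26%). For 25 genes of the meiotic divisions the counts were 2 (8%) and 3 (12%), with 0 of either with the offset. For 22 genes of piRNAs and germ granules they were 3 (13.6%) and 1 (4.55%), again with 0 of either.

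Of 28 round spermatid markers 5 were higher (17.9%, against 11.9% of all genes) and 0 lower (median 0.73), and 9 (32.1%, against 7.03%) and 0 with the offset (median 1.03). *Spaca1*, an acrosomal membrane gene, was at 4.03, 6.20 and 5.23 CPM and at 8.95, 21.8 and 32.9 CPM (log2 fold change 2.04 ± 0.44, edgeR adjusted p = 0.00718; 1.68 with the offset), and *Smcp*, a gene of the sperm mitochondrial capsule, at 17.6, 18.4 and 20.8 CPM and at 26, 88.1 and 164 CPM. CM replicate 1 was the lowest of its group for both and lay close to BORIS KO. *Akap3* and *Akap4*, of the fibrous sheath of the tail, and *Crem*, a regulator of spermatid transcription, were the other 3. *Akap3* fell just under the fold threshold with RLE scaling, DESeq2, limma-voom, no low-count filter or a replicate block (0.93 to 0.998). *Akap4* lost its call with the offset (1.34, edgeR adjusted p = 0.0599), and so did *Crem* (0.34). Without BORIS KO replicate 1, 2 or 3, or CM replicate 2 or 3, neither *Akap3* nor *Akap4* was called. *Smcp* was not called without BORIS KO replicate 1.

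For *Prm1* and *Tnp1*, typical genes of late spermatids, the libraries of the groups overlapped. *Prm1*, a protamine, was at 7.72, 4.48 and 3.83 CPM in BORIS KO and at 3.55, 13.2 and 15.6 CPM in CM, where replicate 1 was lower and replicates 2 and 3 were higher than all BORIS KO libraries; it was called only with the offset (1.01, 1.73). *Tnp1*, a transition protein, was at 8.42, 4.77 and 4.74 CPM and at 1.65, 8.13 and 11.2 CPM and was not called. Summed, the 28 markers made 3779 to 4114 CPM in BORIS KO and 3510, 5118 and 4930 CPM in CM, so the groups overlapped.

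Acrosome and fertilization genes included 7 higher of 23 (30.4%, against 11.9% of all genes) and 0 lower, and 6 (27.3%, against 7.03%) and 0 with the offset. Flagellum and axoneme genes had 5 higher and 2 lower of 23 (21.7 and 8.70%), and 3 and 1 with the offset (13.0 and 4.35%). Genes of protamines and histone exchange had 1 and 1 of 16 (6.25% each), and 3 (18.75%) and 0 with the offset. Both lists rest on few genes. Of 17 transcription regulators of spermatids 6 were higher (35.3%) and 2 lower, and 4 (23.5%) and 0 with the offset. *Taf7l*, a testis form of a TFIID subunit on the X chromosome, stood at 0.71, 1.11 and 1.19 CPM and at 6.30, 9.75 and 15.2 CPM (3.37, 2.78 with the offset), and *Hmgb4*, a chromatin gene of spermatids, at 4.64, 2.91 and 2.92 CPM and at 6.66, 36.4 and 52.5 CPM (3.19, 2.86). Both passed in both fits.

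**Figure D3:**
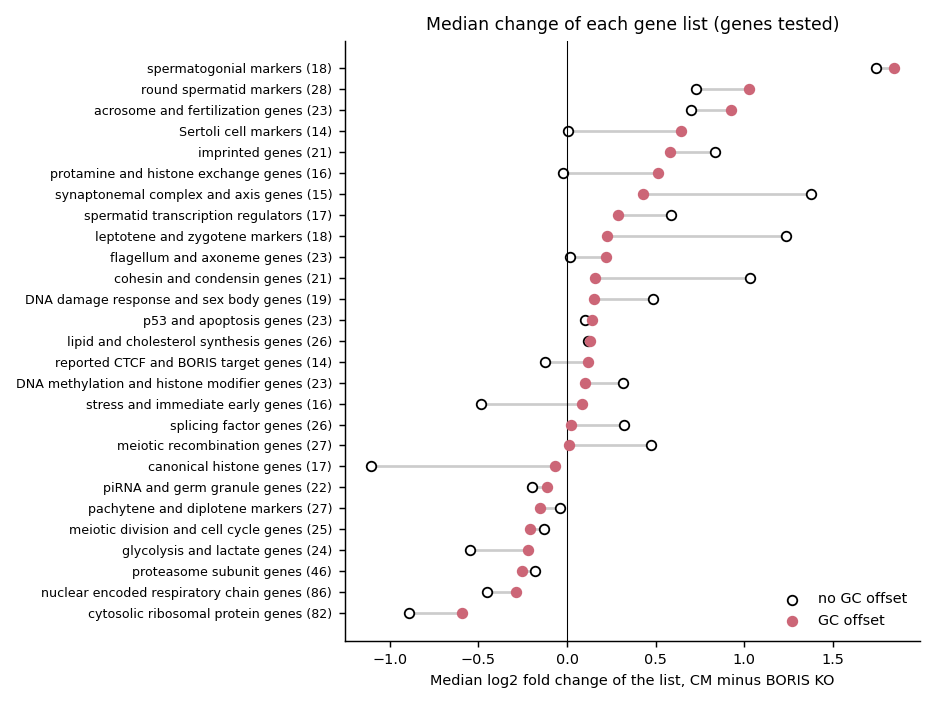
Median log2 fold change (CM minus BORIS KO) of each gene list with at least 14 tested genes, without the GC offset (open points) and with it (filled); the number of tested genes is in parentheses. Spermatogonial markers lie highest in both fits (1.74 and 1.85) and cytosolic ribosomal protein genes lowest with the offset (-0.59), while genes of the synaptonemal complex move from 1.38 to 0.43 and canonical histone genes from -1.11 to -0.07.

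The X chromosome stood apart from the autosomes. Of 306 tested X genes 187 were higher in CM (61.1%, against 11.9% of all genes) and 0 lower, with a median log2 fold change of 2.28. Tested genes had to pass a count filter on these 6 libraries, which low X genes could pass through CM alone, so the count, the share and the median describe the genes that passed and are no support by themselves. Without the filter 181 were higher and 2 lower, with a median of 1.90. With the GC offset 143 were higher (46.7%, against 7.03%) and 0 lower, with a median of 1.70. With the offset and without BORIS KO replicate 1, 2 or 3 the count of higher X genes was 68, 61 or 64, and without CM replicate 3 it was 91. The share of higher genes ran from 5.34 to 16.4% over the 19 autosomes, and from 4.79 to 7.24% with the offset, where their medians lay between -0.13 and 0.09. Of 7 tested Y genes 5 were higher (71.4%), and 3 with the offset (42.9%).

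All X genes together, tested or not, made up 0.0161, 0.0182 and 0.0176% of the CPM in BORIS KO and 0.0468, 0.0793 and 0.123% in CM replicates 1, 2 and 3. Every CM library lay above every BORIS KO library, and still at a small share. In WT spermatocytes the share was 0.0167 and 0.0155%, and in CTCF HET spermatocytes it was 0.0785, 0.0763 and 0.0319%. The 2 groups with 1 targeted *Ctcf* allele were thus both above the 2 groups without one. They were also the groups with fewer genes detected, at 12018 to 13406 in CTCF HET and 14145 to 16666 in CM against 17631 to 17970 in WT and BORIS KO, and the part of this in the X share was not tested. In BORIS KO round spermatids, where the X chromosome is active again in part, the share was 0.485 to 0.571%, and in CM round spermatids 0.717, 1.74 and 0.848%. Whole testis did not separate, with 1.05 to 1.48% for BORIS KO and 1.25 to 1.60% for CM.

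**Figure D4:**
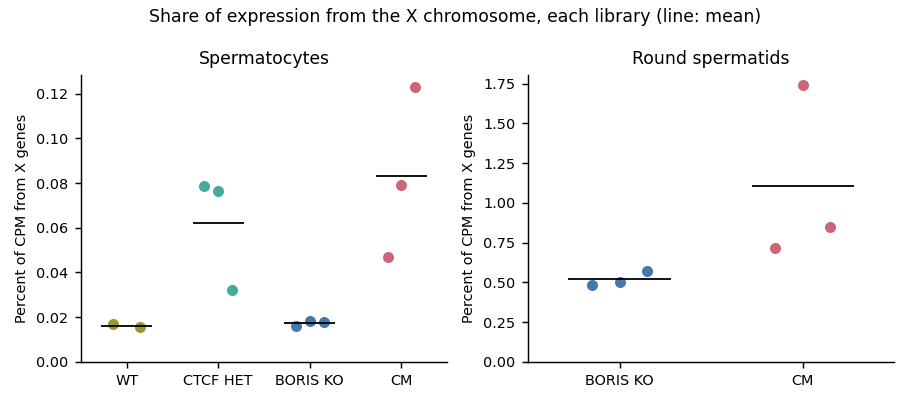
Percent of the CPM that came from X genes in each library of spermatocytes (left, 4 genotypes) and of round spermatids (right, BORIS KO and CM); points are libraries and lines the group means. The CM spermatocyte libraries (0.0468 to 0.123%) lie above the BORIS KO libraries (0.0161 to 0.0182%) and the CTCF HET libraries above WT, on an axis far below that of round spermatids.

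Single X genes had values as follows, named for the highest CM levels after these were seen. *Usp9x*, a deubiquitinase, was at 2.19, 2.81 and 3.13 CPM in BORIS KO and at 7.96, 14.7 and 23.5 CPM in CM (log2 fold change 2.51 ± 0.39, edgeR adjusted p = 0.00183; 1.40 with the offset). *Cul4b*, a ubiquitin ligase scaffold, was at 2.33, 3.56 and 3.47 CPM and at 11.7, 20.2 and 33.6 CPM, and *Huwe1*, a ubiquitin ligase, at 2.28, 3.43 and 3.16 CPM and at 10.3, 11.8 and 19.5 CPM. In all of them CM replicate 3 was highest and replicate 1 lowest, as in the X share itself. *Cylc1*, a cylicin of the sperm head, reached 8.95, 26.9 and 58.5 CPM from 1.96, 2.79 and 3.28 CPM. On the Y chromosome *Usp9y* went from 0.23, 0.35 and 0.46 CPM to 3.28, 5.34 and 5.58 CPM (3.77 ± 0.37, adjusted p = 0.000464; 2.59 with the offset).

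X genes were higher in CM at every level of expression examined. Genes were placed in 5 classes by their WT spermatocyte level, from 0.03 to 10 CPM, using libraries outside the comparison, and the summed level of every X gene in a class was 4.12 to 5.99 times higher in CM, against 0.94 to 1.47 times for the autosomal genes of the same classes. By the 5 bins of GC content from low to high, 86 of 163, 28 of 74, 15 of 38, 13 of 25 and 1 of 6 tested X genes were higher with the offset, against 4.20 to 7.16% of the autosomal genes. The last bins hold too few X genes to be compared, and the limit of the count filter holds for all 5 bins.

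Spermatid expression moved with the X result. Tested X genes were mostly genes with more RNA in round spermatids than in spermatocytes of WT mice, with a median ratio of 35.1 against 0.81 for autosomal genes, and 83.7% of them were over a ratio of 8, against 8.95%. Autosomal genes with a ratio of up to 2 had a median log2 fold change of -0.11 with the offset and 3.27% were higher. This rose with the ratio to 1.61 and 48.8% for autosomal genes over 64. X genes had 0.78 and 4.76% (1 of 21 genes) up to a ratio of 2, 2.15 and 61.3% between 8 and 16, and 1.87 and 61.4% over 64. The median of the X genes was above that of autosomal genes in each of the 6 classes of ratio, by least in the highest class. The classes hold only genes that passed the count filter, which low X genes could pass through CM alone. They were not matched for level either. Up to a ratio of 2 the BORIS KO libraries held 7.05 to 14.2 CPM over 21 X genes, and 884276 to 921081 CPM over 10662 autosomal genes. The medians and shares therefore describe these genes and are no support by themselves. Which part of the rise goes with spermatid RNA in the sorted fraction was not tested.

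**Figure D5:**
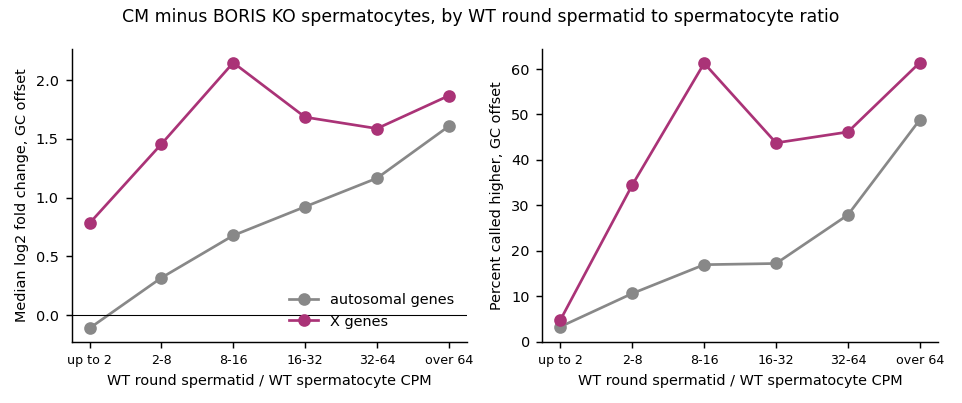
Median log2 fold change with the GC offset (left) and percent of genes called higher (right) for X and autosomal genes, in 6 classes of the ratio of WT round spermatid to WT spermatocyte CPM. Autosomal medians climb from -0.11 to 1.61 along the ratio, and X medians lie above them in every class, at 0.78 in the first and 1.87 in the last. Only genes that passed the count filter are shown, and the classes are not matched for level.

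Of 82 cytosolic ribosomal protein genes 32 were lower (39.0%, against 12.3% of all genes) and 1 higher, with a median of -0.89, and 16 were lower (19.8%, against 2.71%) and 4 higher with the offset, with a median of -0.59. *Rpl24* was at 63.3, 60.8 and 55.3 CPM and at 25.7, 20.8 and 24.4 CPM (log2 fold change -1.34 ± 0.11, edgeR adjusted p = 0.000337; -1.84 with the offset). *Rpl23* went the other way, from 219, 221 and 224 CPM to 457, 554 and 549 CPM (1.23, 1.39 with the offset). Ribosomal protein genes have many near-identical pseudogene copies, among which reads may have been divided, so their values are uncertain.

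Of 86 nuclear genes of the respiratory chain 22 were lower (25.6%, against 12.3% of all genes) and 5 higher (median -0.45), and 11 (12.8%, against 2.71%) and 3 with the offset (-0.29). *Cox7c*, a subunit of cytochrome c oxidase, fell from 24.5, 22.6 and 21.7 CPM to 9.66, 7.88 and 7.90 CPM (-1.43, -1.80 with the offset), and *Ndufa7*, of complex I, from 55.3, 52.7 and 48.3 CPM to 23.0, 15.7 and 14.4 CPM (-1.56, -1.63). *Cox8c*, a testis form of an oxidase subunit, was at 1222, 1335 and 1355 CPM and at 701, 261 and 255 CPM, with CM replicate 1 between the others and BORIS KO. *Uqcrb*, of complex III, rose from 93.7, 100.5 and 106 CPM to 288, 457 and 447 CPM. Of 46 proteasome genes 5 were lower (10.9%, under the share of all genes) and 2 higher (4.35%), and 3 (6.52%) and 1 (2.17%) with the offset. Of 24 genes of glycolysis and lactate 5 were lower (20.8%) and 0 higher, and 0 and 1 (4.17%) with the offset.

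Imprinted genes included 6 higher (28.6%, against 11.9% of all genes) and 0 lower of 21 tested, and 6 (30.0%, against 7.03%) and 1 of 20 with the offset (medians 0.84 and 0.58). *Cdkn1c*, a cell cycle inhibitor, was at 1.37, 1.56 and 1.34 CPM and at 4.55, 4.25 and 6.71 CPM (log2 fold change 1.86 ± 0.25, edgeR adjusted p = 0.000988; 3.09 with the offset). *Igf2*, a growth factor whose imprint depends on CTCF sites, was at 2.43, 2.39 and 2.43 CPM and at 5.08, 7.91 and 8.67 CPM (1.58, 2.45 with the offset). *Mkrn3* and *Plagl1* also passed in both fits, but not with all 4 genotypes in one edgeR fit (adjusted p = 0.210 and 0.0553). *Mkrn3* was not called without BORIS KO replicate 2 or 3 either.

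The remaining lists had the following counts, beside 11.9% higher and 12.3% lower of all genes, and 7.03 and 2.71% with the offset. Among 23 tested genes of p53 and apoptosis 5 were higher (21.7%) and 3 lower (13.0%), and 2 (8.70%) and 0 with the offset. Among 16 stress and immediate early genes 1 was higher (6.25%) and 0 lower (*Klf4*, in both fits). For 17 canonical histone genes the counts were 2 (11.8%) and 4 (23.5%), and 2 (11.8%) and 0 with the offset. For 26 genes of lipid synthesis they were 3 (11.5%) and 2 (7.69%), and 2 (8%) and 0. For 23 genes of DNA methylation and histone modification they were 2 and 2 (8.70% each), and 1 (4.35%) and 0. For 26 splicing factor genes they were 3 (11.5%) and 1 (3.85%), and 1 and 1 (3.85% each). Leptotene and zygotene markers, which share members with the axis genes, had 10 higher (55.6%) and 2 lower (11.1%) of 18. With the offset they had 2 (11.1%) and 0, although their sum rose from 2758 to 2826 CPM to 6152 to 9871 CPM.

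Of 14 tested genes reported as CTCF and BORIS targets, 2 were higher and 2 lower (14.3% each, against 11.9 and 12.3% of all genes). With the offset 2 of 13 were higher (15.4%, against 7.03%) and 0 lower. The list comes from work on such samples and is no independent evidence of direction. Of its members, *Kit* and *Stra8* rose in both fits, and *Mfi2*, a melanotransferrin gene, was lower without the offset. It stood at 8.18, 9.54 and 8.81 CPM and at 4.71, 3.61 and 3.64 CPM (log2 fold change -1.15 ± 0.18, edgeR adjusted p = 0.00167; -0.27 and 0.204 with the offset). *Fads1*, a fatty acid desaturase, was at 2.20, 2.07 and 2.15 CPM and at 1.51, 1.62 and 0.59 CPM and was not called (-0.78, adjusted p = 0.137). *Fads2* (-0.02, 0.80 with the offset), *Ankrd52* (-0.23, 0.37) and *Fert2* (0.06) were not called either, and *Prss50* and *Gal3st1* were too low to be tested.

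CTCF peaks of WT and CM germ cells and BORIS peaks of WT germ cells were set beside these genes, using peaks within 1 kb of an annotated start site. Sites with and without a CTCF peak in CM are shown because they lie at genes described above. The search pattern was a core of the CTCF motif, CC and AG with any 3 bases between them, then any 2 bases and GGC, on both strands of 200 bases centred on the peak summit. It was present at 49.6% of 34625 WT CTCF summits, at 61.5% of 21525 CM CTCF summits, at 53.9% of 7652 BORIS summits and in 7.35% of windows of the same length on the start sites of 21897 genes. Each line gives 30 bases of mm9, read on the strand of the match, with the match in capitals.
Ctcf, chr8:108160646-108160675, minus strand: atcgtgacaCCTAGAGGCGGCccgcgaaac
Kit, chr5:75971775-75971804, plus strand: ccccacgagCCTGTAGGTGGCggctatggg
Fads1, chr19:10257227-10257256, plus strand: tttcaggccCCGCGAGGGGGCgcgtctctg
Mfi2, chr16:31878803-31878832, plus strand: ttggaccggCCGGCAGGGGGCagaggaggc
Plekhg4, chr8:107898732-107898761, plus strand: ttcgagccaCCAGAAGGTGGCgcccttgga
Stag2, chrX:39502440-39502469, plus strand: ggttcgcggCCGACAGATGGCgcctgcgcg
The sites at *Ctcf*, *Kit* and *Fads1* had WT CTCF peaks of height 487, 132 and 288, with BORIS peaks of 110, 124 and 132, and no CM CTCF peak. Those at *Mfi2*, *Plekhg4* and *Stag2* had WT CTCF peaks of 2613, 3918 and 3367, BORIS peaks of 96, 333 and 295, and CM CTCF peaks of 219, 676 and 358. Of these 6 sites, the 3 without a CM peak had the lower heights in WT. At those 3 *Kit* rose while *Ctcf* and *Fads1* were not called; of the 3 with one, *Mfi2* and *Plekhg4* fell and *Stag2* rose, *Mfi2* only without the offset. Each list is 1 set of peaks without a replicate error.

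Genes were then counted by the peaks at their start sites. A CM peak missing here or at the sites above is a difference from WT germ cells, which have BORIS and both *Ctcf* alleles. The expression change is between CM and BORIS KO spermatocytes, so the 2 contrasts differ. CTCF ChIP of BORIS KO spermatocytes, also in the series, was not used. Whether a given peak missing in CM was present in BORIS KO is therefore not shown here, and the counts are no test of CTCF loss. The paper states that CTCF binding was not significantly lost in BORIS KO. Where a WT CTCF peak with BORIS had no CM peak, 89 of 942 tested genes were higher (9.45%) and 139 lower (14.8%), with a median log2 fold change of -0.03, and 49 and 20 with the offset (5.20 and 2.12%, median 0.01). Over all tested genes with a start site the shares were 11.7 and 12.5%. Where such a peak was kept in CM, 73 of 1113 were higher (6.56%) and 229 lower (20.6%, median -0.35). With the offset 66 and 47 were (5.93 and 4.22%, median -0.05). The median GC content of this class was 52.6%, against 49.7% of all tested genes. CTCF peaks without BORIS had 207 higher and 299 lower of 2210 where the CM peak was missing (9.37 and 13.5%). Where it was kept they had 44 and 102 of 592 (7.43 and 17.2%). BORIS peaks without CTCF had 83 and 74 of 581 (14.3 and 12.7%), and start sites with no peak 1124 and 884 of 8380 (13.4 and 10.5%). With the offset the share of higher genes ran from 5.20 to 7.78% over the 6 classes, against 7.03% of all genes, and the share of lower genes from 2.12 to 4.22%, against 2.71%.

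The same allele difference was measured in round spermatids, in libraries of their own. There 1483 of 15602 genes were higher in CM (9.51%) and 1385 lower (8.88%), and 249 and 214 with the GC offset (1.66 and 1.42%, together 3.08%). Of the 665 genes higher in spermatocytes in both fits, 646 were tested in round spermatids with the GC offset. In that fit 498 had the same sign (77.1%, against 51.6% of all genes) and 83 were called higher, against 1.66% of all genes. Of the 270 lower genes 246 of 260 had the same sign in that fit (94.6%, against 48.4% of all genes). There 59 were called lower, against 1.42% of all genes. Across genes the Spearman correlation of the changes was 0.68, and 0.48 with the offset. The share of GC in the counts differed between the groups in round spermatids too, at 49.4 to 49.5% for BORIS KO and 46.7 to 47.5% for CM.

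*Sfr1* was at 59.1, 66.1 and 84.6 CPM in BORIS KO round spermatids and at 566, 891 and 1073 CPM in CM round spermatids, and *Rpl24* at 52.6, 49.8 and 45.4 and at 18.5, 16.7 and 16.8 CPM. *Stra8* was at 2.37, 3.03 and 4.60 CPM and at 11, 227 and 22.8 CPM, with 1 CM library far above the others. No gene was called for a difference of the CM change between the cell types (edgeR, 0 of 16244 in either direction, 2543 at an unadjusted p below 0.05), while DESeq2 called 633 and 58. Without CM round spermatid replicate 1, edgeR called 567 and 248, and without CM spermatocyte replicate 1 it called 564 and 60.

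In whole testis 1 of 16655 genes was higher in CM (0.006%) and 0 were lower by edgeR, with 3590 at an unadjusted p below 0.05, while DESeq2 called 754 and 278. With the replicate number as a block edgeR called 655 and 418. The gene called was *Rltpr*, also the only one with the GC offset (0.00624%), at 1.99, 0.90 and 1.55 CPM in BORIS KO and 84.0, 54.9 and 44.8 CPM in CM. *Sfr1* was at 23.2, 35.2 and 29.8 and at 17.6, 31.4 and 36.8 CPM, so the groups overlapped where the sorted cells stood far apart. Across genes the changes in spermatocytes and whole testis had a Spearman correlation of -0.01. Of the genes higher in spermatocytes in both fits 45.1% had the same sign in whole testis and of the lower genes 58.4%, close to the 47.6 and 52.4% of all genes. Whole testis libraries held 50.0 to 50.7% GC in both groups and were made in another way, from RNA depleted of ribosomal RNA rather than selected for poly(A), so cell mixture and library type cannot be told apart.

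The loss of 1 *Ctcf* allele can also be set against WT, in the presence of BORIS. In spermatocytes CTCF HET had 310 genes higher (2.27% of 13648) and 357 lower (2.62%) than WT, and 242 (1.83%) and 32 (0.242%) with the GC offset, from 2 WT and 3 CTCF HET libraries. Across genes these changes had a Spearman correlation of 0.63 with those between CM and BORIS KO, and of 0.53 with the offset; no library is shared. CTCF HET libraries also detected 12018 to 13406 genes against 17631 and 17683 in WT, and held at 0 from 45 to 292 genes with a BORIS KO mean of at least 100 counts, against 0 to 28 in CM, and the part of this in the correlation was not tested. The median change of X genes was 1.74, and 1.63 with the offset. The test of the difference between the *Ctcf* effects without and with BORIS called 350 of 15263 genes as more positive without BORIS (2.29%) and 82 as more negative (0.537%), and 46 and 48 of 14705 with the offset (0.313 and 0.326%). The counts turn on single libraries, with 22 and 6 without WT replicate 1, 947 more positive without CTCF HET replicate 3 and 388 more negative without CM replicate 1.

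*Fubp1* illustrates the first kind. It was at 202 and 166 CPM in WT, 226, 219 and 205 CPM in CTCF HET, 96.3, 95.6 and 97.1 CPM in BORIS KO and 268, 310 and 297 CPM in CM, all scaled over the 4 genotypes. The BORIS KO libraries stood below the other 3 genotypes. *Rpl37a* is of the second kind, at 13.6 and 15.7 CPM in WT, 17.1, 18.1 and 19.2 CPM in CTCF HET, 34.9, 30.5 and 28 CPM in BORIS KO and 12.6, 11.2 and 10.1 CPM in CM. Here BORIS KO stood above the others. For 431 X genes the median of this difference was 0.90, with 17 more positive and 0 more negative, and 0.43, with 2 and 0, with the offset.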

How the data were processed

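RNA-seq counts per gene symbol were taken as the authors deposited them, as raw counts without normalization. Reads of sorted cells were poly(A) RNA aligned by the authors to mm9 with STAR, and those of whole testis were aligned with TopHat2 and Bowtie2. The counting tool, its annotation and its use of strand are not given in the sources used here, so genes that overlap or share reads are uncertain. The deposited peak lists hold a peak height, treated as signal, whose normalization is not given, with 1 list for each antibody and genotype.

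The 3 CM and 3 BORIS KO spermatocyte libraries were fitted alone in edgeR 4.0.16 (R 4.3.3) with filterByExpr, TMM scaling and the robust quasi-likelihood test, and 14292 of 23284 genes were tested. Adjusted p-values are Benjamini-Hochberg values over all tested genes, and a gene was called at an adjusted p below 0.05 and a fold change over 2. The GC offset was a loess curve (span 0.5) in each library on the GC content of the gene's exons (mm9). The curve was fitted to the deviation of log CPM from the gene's mean over the fitted libraries. It covered the 96.7% of tested genes with a value. DESeq2 1.42.0, limma-voom (limma 3.58.1), other scalings and filters, a replicate block and fits without each library were alternatives. Figures and summaries were made in Python 3.11.15 with pandas 2.3.3, numpy 2.4.6 and matplotlib 3.10.9. The scripts were tested on simulated data.

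Replicates were compared before use, and no pair differed by less than sampling noise. Genes were named by rule: *Ctcf*, *Ctcfl* and *Rltpr*, the 10 genes with the smallest p in each direction whose libraries did not overlap, genes the study names, up to 4 members of each list with the smallest p and the 2 with the highest mean CPM, and the 4 genes with the smallest p in each direction of each interaction. 1 gene that the rule names is not reported here. Any other gene was chosen after its values were seen. The comparison and the gene lists were chosen with earlier results of these data known. Histone and RNA polymerase peaks were not used here.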

Additional observations from a re-analysis of the deposited data

Results flagged for a closer look

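The *Ctcf* effect on 8 genes differed between mice without and with BORIS, by the test of the difference between CM minus BORIS KO and CTCF HET minus WT in spermatocytes (edgeR quasi-likelihood test, Benjamini-Hochberg, 4 genes with the smallest p in each direction). *Spcs3*, a signal peptidase subunit, had a difference of 1.54 (log2, adjusted p = 0.00114), with 121 and 115 CPM in WT, 67.9, 84.2 and 82.2 CPM in CTCF HET, 76.0, 71.0 and 73.4 CPM in BORIS KO and 145, 136 and 144 CPM in CM. *Zfp280d* had 1.47, *Fubp1* 1.36 and *Dzip3* 1.45. With the GC offset these 4 became 0.88, 0.76, 0.61 and 0.64, under the fold threshold. *Tex264*, a receptor for autophagy of the endoplasmic reticulum, had -1.72, with 22.2 and 22.2 CPM in WT, 34.4, 33.8 and 36.0 CPM in CTCF HET, 43.3, 52.2 and 50.5 CPM in BORIS KO and 24.0, 23.0 and 22.7 CPM in CM. *Map1lc3a*, another autophagy gene, had -1.48, *2310047M10Rik* -1.65 and *Rpl37a* -1.77. With the offset they became -1.30, -0.99, -1.24 and -2.00, and *Map1lc3a* no longer passed (adjusted p = 0.109).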

How the results depend on the processing

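The counts of genes between CM and BORIS KO spermatocytes moved most with base composition and threshold. An adjusted p below 0.001 left 509 higher and 492 lower, and no fold threshold gave 3784 and 3619. The GC offset gave 972 and 374, the GC and length offset 961 and 375, and the GC offset with an adjusted p below 0.001 33 and 8. Leaving out 1 library gave 1233 to 2056 higher and 1525 to 2840 lower, and with the GC offset 485 to 1581 and 255 to 1039, or 1012 and 489 without both CM libraries with the fewest genes. The replicate numbers did not pair the libraries, with correlations of same-numbered deviations of 0.162, 0.00137 and 0.114. A replicate block gave 1457 and 1892, and 822 and 429 with the GC offset. In round spermatids DESeq2 called 2262 higher, and the GC offset 249 and 214. In whole testis DESeq2 called 754 and 278 and the replicate block 655 and 418. For the difference between the cell types DESeq2 called 633 and 58, and leaving out 1 library 0 to 567 and 0 to 248. For the difference between the *Ctcf* effects without and with BORIS, RLE scaling called 133 and DESeq2 242 as more negative, the replicate block 175 as more positive and the GC offset 46 and 48, while leaving out 1 library gave 22 to 947 and 6 to 388. X genes called higher numbered 106 at a mean of at least 1 CPM, 114 with all 4 genotypes in the fit, 116 with the replicate block and GC offset, 18 at an adjusted p below 0.001, 131 to 237 without 1 library and 61 to 201 with the offset besides. X genes called lower numbered 2 without the low-count filter and 0 to 1 without 1 library. Of 90 named genes 6 changed sign with the GC offset, *Rps15* (0.12), *Dmrtb1* (0.17), *Piwil1* (0.079), *Ybx2* (0.069), *Fads2* (0.80) and *Ankrd52* (0.37), and 20 kept it but lost their call. *Fads2* was also at 0.018 with the 1 CPM filter and at -0.15 to 0.017 without 1 library, *Tnp1* at -0.020 with the replicate block and -0.36 to 0.60 without 1 library, and *Fert2* at -0.055 to 0.077 without 1 library. The cause of these moves was not tested. Genes of the lowest levels rest on few reads in these libraries, and 3 preparations a group limit the precision of all values.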
